A study of Mus musculus with 15 samples.

Results

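The transcripts of 10 genes of the actin cytoskeleton and its transcriptional control were followed in 4T1 cells, a mouse mammary carcinoma line. They are serum response factor (Srf), palladin (Palld), the actin genes Actb, Actg1 and Acta2, the tropomyosin genes Tpm1 and Tpm2, transgelin (Tagln), calponin 2 (Cnn2) and the myosin light chain gene Myl9. They were picked by symbol from the 40402 genes of the count table, and Palld was picked because its level was lower in every treated library. All 10 were in the table, and 9 passed the filter that kept 17492 genes, at least 1 CPM (the unit of counts scaled to library size, here by TMM) in at least 1 library. Because these genes were chosen with their levels against untreated cells known, those levels are given as a description without a test.

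The cells, of wild-type genotype in all groups, were left untreated or were treated, 24 h after seeding, with blackberry extract (BLA), blueberry extract (BLU), gold nanoparticles made with blackberry extract (BLA-A) or gold nanoparticles made with blueberry extract (BLU-A). Total RNA was sequenced in bulk. The labels list 3 replicates per condition, but within each condition the 3 columns were closer to each other than sampling noise alone would place separate samples. They were counted as 1 library, so no level has a replicate check. Values for the 4 treatments are listed below in the order BLA, BLU, BLA-A, BLU-A. All 4 treatments are set against the same untreated library. The labels also give each column a batch date of its own, so batch and condition cannot be told apart.

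Serum response factor is a transcription factor that binds a short DNA element called the CArG box. Its cofactors of the MRTF family are held in the cytoplasm by monomeric actin and enter the nucleus when actin is assembled into filaments, where they drive the genes of actin, tropomyosin and other filament proteins. Cofactors of the TCF family carry growth factor signals to the same element at immediate early genes. Palladin is a scaffold that bundles actin filaments and gathers their binding proteins in stress fibres and cell adhesions, and its loss or gain is known to alter the motility of cancer cells.

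The CArG boxes are shown first because they are the sequence that ties these genes to serum response factor. In the 250 bases before the transcription start, taken from RefSeq on GRCm38.p6, 8 of the 10 genes had an entry and 4 of these held a CArG box on either strand. The share was 1.62% over the 27025 genes with an entry. No match was found in these windows of Acta2, Tpm1, Tpm2 or any of the 3 starts of Palld, which says only that the letters are not in these windows. The 4 windows with a match are printed 5′ to 3′ on the strand of the gene, with the box in capitals. They are chr17:46556163-46556412 (minus strand) for Srf, chr11:120348496-120348745 (minus strand) for Actg1, chr2:156775214-156775463 (plus strand) for Myl9 and chr10:79988350-79988599 (plus strand) for Cnn2.
Srf: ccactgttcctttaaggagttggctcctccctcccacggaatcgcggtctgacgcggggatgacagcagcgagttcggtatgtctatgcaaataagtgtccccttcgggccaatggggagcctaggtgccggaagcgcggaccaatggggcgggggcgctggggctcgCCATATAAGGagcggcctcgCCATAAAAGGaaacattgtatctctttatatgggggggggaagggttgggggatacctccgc
Actg1: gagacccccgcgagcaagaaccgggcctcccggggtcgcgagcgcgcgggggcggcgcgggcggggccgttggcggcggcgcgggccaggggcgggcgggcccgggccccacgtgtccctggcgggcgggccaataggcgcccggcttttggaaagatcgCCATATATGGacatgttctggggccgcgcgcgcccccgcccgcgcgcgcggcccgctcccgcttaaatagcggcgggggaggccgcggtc
Myl9: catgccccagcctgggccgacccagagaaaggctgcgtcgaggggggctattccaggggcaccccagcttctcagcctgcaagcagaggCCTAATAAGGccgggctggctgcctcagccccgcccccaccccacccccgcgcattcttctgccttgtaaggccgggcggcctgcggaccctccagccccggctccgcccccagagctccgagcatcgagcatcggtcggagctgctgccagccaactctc
Cnn2: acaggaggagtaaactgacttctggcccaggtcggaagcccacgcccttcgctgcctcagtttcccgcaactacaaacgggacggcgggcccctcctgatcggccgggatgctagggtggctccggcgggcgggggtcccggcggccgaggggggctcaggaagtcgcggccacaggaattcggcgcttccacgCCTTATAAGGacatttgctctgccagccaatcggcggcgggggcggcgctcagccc
Srf held a pair of boxes, which began 82 and 62 bases before its start. The boxes of Actg1, Myl9 and Cnn2 began 90, 161 and 56 bases before the start. A match of letters does not show that the factor is bound there.

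The columns held 25611976 to 26957141 counts each, and the chi-square per degree of freedom between the columns of a condition was 0.0951 to 0.475. A count of 3, taken as the floor, was worth 0.109 to 0.129 CPM. The cells carried all 5 epithelial markers examined, with Krt18 at 573 CPM in untreated cells. Of 6 smooth muscle markers only Myh11 and Cnn1 passed the filter, and the summed level of the 6 was 1.21 to 5.18 CPM. Of 6 fibroblast markers 3 passed, with Pdgfra at 86.2 to 102 CPM, while Lum was at 0 in all libraries. Of 5 immune markers 2 passed, with Cd68 at 6.90 to 8.83 CPM and Lyz2 at 0, and 3 of 4 endothelial markers passed with a summed level of 2.93 to 7.06 CPM. The summed epithelial level was 1272, 939, 982, 1676 and 1114 CPM in untreated cells and the 4 treatments.

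Among the 6 well-counted genes, Palld stood farthest from its untreated level in every treatment, at 0.30 to 0.36 of its untreated level. The cytoplasmic actin transcripts Actb and Actg1 were lower in BLA, BLU and BLU-A and higher in BLA-A, and Srf was lowest in BLA and highest in BLA-A. Tpm1 and Cnn2 were below the untreated level in each treatment and lowest in BLA-A. In BLA, the log2 fold change was above 1 in size, the fold threshold used throughout, for Palld and Acta2, 2 of the 9 genes, against 16.3% of all genes. In BLU, BLA-A and BLU-A, 1 of 9 did, against 10.1%, 20.8% and 7.72% of all genes. The median log2 fold change of the 9 genes was -0.35, -0.16, -0.42 and -0.21 in the 4 treatments. The medians of all genes were -0.01, -0.01, -0.01 and 0. Lower in all 4 treatments, by any size, were Palld, Tpm1 and Cnn2, 3 of 9 beside 19.1% of all genes, and higher in all 4 was Tagln, 1 of 9 beside 19.4%. Acta2 passed the filter through its BLA level alone, so that its entry and its place past the threshold rest on the same value. These counts rest on the contrast that the choice of Palld used and carry no weight as a result. In bulk samples, fewer cells of a type and less RNA per cell cannot be told apart.

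**Figure D1:**
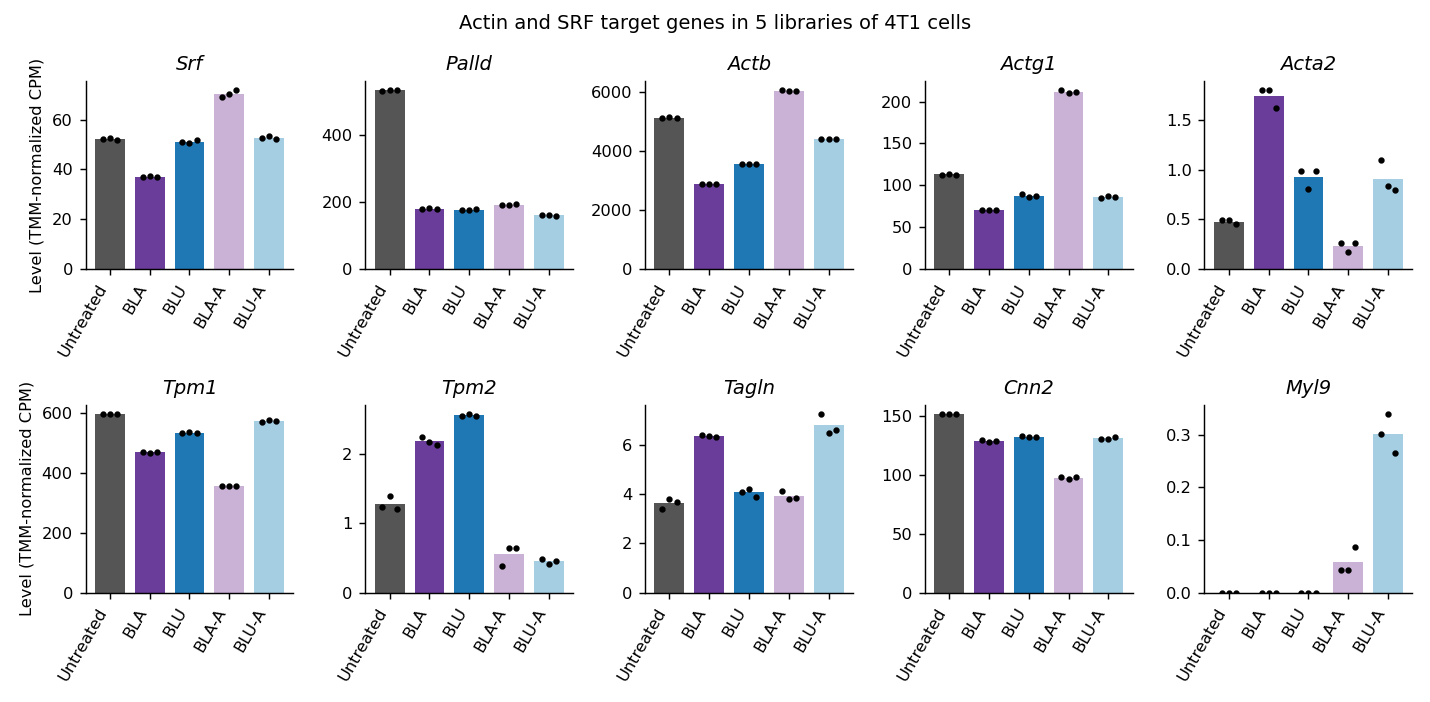
TMM-normalized CPM (vertical axis, linear, from 0) of each of the 10 genes in the 5 libraries. Bars are the mean of the 3 columns and points the columns themselves, which are not independent samples. Palld stands at 533 CPM without treatment and at 160 to 191 CPM in the 4 treated libraries, while Srf, Actb and Actg1 are highest in BLA-A.

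Palld, on chr8:61964458-62355796 of GRCm39 (minus strand), was at 533 CPM in untreated cells. It was at 180 CPM with BLA, 176 CPM with BLU, 191 CPM with BLA-A and 160 CPM with BLU-A. The 4 treated libraries lay close together and none approached the untreated level. As counts, 14168 in untreated cells stood against 4894, 4842, 4429 and 4227. The ratio to untreated cells, with its 95% counting interval, was 0.338 (0.327 to 0.349) in BLA and 0.331 (0.320 to 0.342) in BLU. It was 0.358 (0.346 to 0.371) in BLA-A and 0.300 (0.290 to 0.310) in BLU-A. These exact intervals cover counting error only, and reads without molecular identifiers are not independent molecules. A log2 fold change below -1 in all 4 treatments was found for 224 genes, or 1.28%, and for 3 of the 2440 genes with a mean of at least 100 CPM, or 0.123%. The other members of that set of 3 were Shc2, a signalling adaptor, at 1323 CPM in untreated cells and at most 0.121 CPM in a treated library, and Slc9a2, a sodium-proton exchanger, at 659 CPM and then at 3.06 to 4.44 CPM. The untreated library thus stood apart from all treated ones at these loci far more than at Palld. With 1 untreated library, the treatments and any other difference of that library cannot be told apart.

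The Palld gene spans 391 kb, and introns were counted with exons. It overlaps 7 other annotated genes, 5 of them on the opposite strand. Since read mates were merged before counting, reads from either strand cannot be cleanly told apart there. Genes over 200 kb with a mean of at least 100 CPM numbered 252, and their median log2 fold change was 0.75, 0.68, 0.37 and 0.43 in the 4 treatments. Over all 1041 genes above 200 kb that passed the filter, whatever their level, the medians were -0.02, 0.15, -0.69 and -0.05. Palld, one of the 252, was at -1.56, -1.59, -1.48 and -1.73. Of the 252, Palld included, 0.794%, 0.397%, 2.78% and 0.397% were lower past the fold threshold in the 4 treatments, and of the 1041, 28.5%, 11.3%, 45.1% and 17.0% were. Since Palld was picked for these differences, its place among long genes is a description. Of its neighbours on the chromosome, Sh3rf1 lies 71.7 kb away and had log2 fold changes of 0.74, 0.65, 0.07 and 0.41. Ddx60 lies 25.3 kb away on the other side and had log2 fold changes of 1.21, 0.57, -0.29 and 0.36. These are the nearest on each side with a mean of at least 10 CPM. Cbr4 and Gm53435 lie nearer on the side of Sh3rf1, at means of 5.28 and 1.13 CPM. Farther off, Spock3, at a mean of 1.25 CPM, was at -2.49, -1.81, -2.46 and -1.44. Whether gene length or the counting of introns has a part in the level of Palld was not tested.

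**Figure D2:**
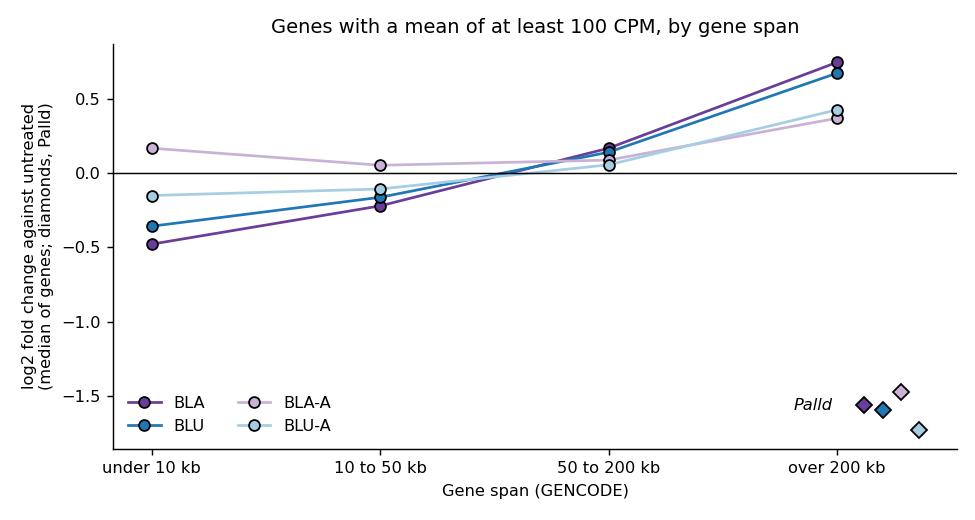
Median log2 fold change against untreated cells (vertical axis) of genes with a mean of at least 100 CPM, in 4 classes of gene span (horizontal axis), one line per treatment. Diamonds, set beside the class over 200 kb, are Palld in the same treatments, at -1.48 to -1.73 where the class medians are 0.37 to 0.75.

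Myopalladin (Mypn), a close relative of palladin found mainly in striated muscle, had 44 counts in untreated cells. It had 0 counts with either plain extract, 1 with BLA-A and 12 with BLU-A. The untreated library was the highest for it as for Palld. It passed the filter through that library alone, at 1.64 CPM, so its lower levels elsewhere are no support for a difference, and no fold is given. Of the 15 genes among palladin relatives and binding partners that passed the filter, Mypn was lower past the fold threshold in every treatment and Arhgap15, a GTPase regulator, in BLA and BLA-A. Over all genes, 8.35% were lower past it in BLA, and 12.2% were lower and 8.62% higher in BLA-A. Arhgap15 had 120 counts in untreated cells and 41 and 26 in those treatments. The 1 gene that was higher past the threshold was Lasp1, an actin-bundling partner of palladin, at 204 CPM in untreated and 439 CPM in BLA-A cells. Pfn1, profilin, which delivers actin monomers to growing filaments and binds palladin, was at 367 CPM without treatment and at 201, 276, 707 and 345 CPM in the 4 treatments. Profilin had the order of Actb, with BLA lowest and BLA-A highest. The membrane linker Ezr was at 400 CPM in untreated and 684 CPM in BLA-A cells, and Vasp, a filament elongation factor, at 65.0 and 97.2 CPM. Sorbs2, an adaptor of stress fibres, was at 194 CPM without treatment and at 355, 291, 123 and 228 CPM in the 4 treatments.

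Srf, on chr17:46857767-46867119, was at 52.3 CPM in untreated cells. It was at 37.1 CPM with BLA, 51.1 CPM with BLU, 70.5 CPM with BLA-A and 52.8 CPM with BLU-A. Untreated, BLU and BLU-A cells were indistinguishable within counting error, BLA was below them and BLA-A above. The ratio to untreated cells was 0.708 (0.653 to 0.769) in BLA and 1.35 (1.25 to 1.45) in BLA-A. It was 0.976 (0.905 to 1.05) in BLU and 1.01 (0.935 to 1.09) in BLU-A, and the sign of the small difference in BLU-A depended on the scaling. In BLU and BLU-A the Srf transcript was near its untreated level while Palld was low, and a link between the levels was not tested.

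Elk4, a TCF cofactor, was lowest in BLA and highest in BLA-A as Srf was, and the other cofactors of Srf had other orders. Mrtfa, a cofactor that shuttles with the actin monomer pool, was at 111 CPM without treatment and at 198, 189, 177 and 156 CPM in the 4 treatments. Mrtfb was at 155 CPM and then at 234, 195, 163 and 181 CPM. Both were above the untreated library in all 4 treatments. Scai, a repressor that binds MRTF, was at 42.7 CPM and then at 65.0, 68.1, 46.2 and 56.1 CPM. Of the TCF family, Elk4 was at 136 CPM and then at 111, 115, 156 and 127 CPM, Elk1 was at 20.9 CPM in untreated and 37.5 CPM in BLA-A cells, and Elk3 at 366 CPM and then at 418, 446, 325 and 464 CPM. None of the 7 cofactor genes that passed the filter lay past the fold threshold in any treatment, and myocardin (Myocd), the muscle cofactor, had 20, 0, 0, 0 and 8 counts. Over all genes, 16.3%, 10.1%, 20.8% and 7.72% lay past it in the 4 treatments.

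Actb, the cytoplasmic beta-actin gene on chr5:142888870-142892509, was at 5126 CPM in untreated cells. It was at 2880 CPM with BLA, 3548 CPM with BLU, 6042 CPM with BLA-A and 4414 CPM with BLU-A. All 5 libraries differed by more than counting error. Its ratio to untreated cells was 0.562 (0.557 to 0.567) with BLA and 0.692 (0.686 to 0.698) with BLU. It was 1.18 (1.17 to 1.19) with BLA-A and 0.861 (0.854 to 0.868) with BLU-A. Each extract was below its nanoparticle counterpart. Scaling by total counts lowered the log2 fold changes in BLA-A by up to 0.19 and left Actb there at 0.05 in place of 0.24.

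Actg1, the cytoplasmic gamma-actin gene on chr11:120236512-120239617, was at 113 CPM in untreated cells. It was at 70.4, 87.2, 212 and 85.5 CPM in the 4 treatments. BLU and BLU-A were not apart beyond counting error, and BLA-A was far above the rest. Its ratio to untreated cells was 0.624 (0.589 to 0.661) in BLA and 1.88 (1.79 to 1.97) in BLA-A. The level of Actg1 may be an underestimate, since only uniquely aligned reads were counted, but a loss of reads was not tested. Among the 100-base stretches of its transcript, 77.9% also occur in transcripts of another named gene, and genes that overlap Actg1 were not left out. For Actb the share was 1.10%. Counts of Actb were 45.4, 40.9, 40.7, 28.5 and 51.6 times those of Actg1 in untreated cells and the 4 treatments. Per kb of gene span, untreated cells had 1410 CPM for Actb, 36.3 for Actg1, 22.0 for Tpm1, 20.3 for Cnn2, 5.60 for Srf and 1.36 for Palld.

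**Figure D3:**
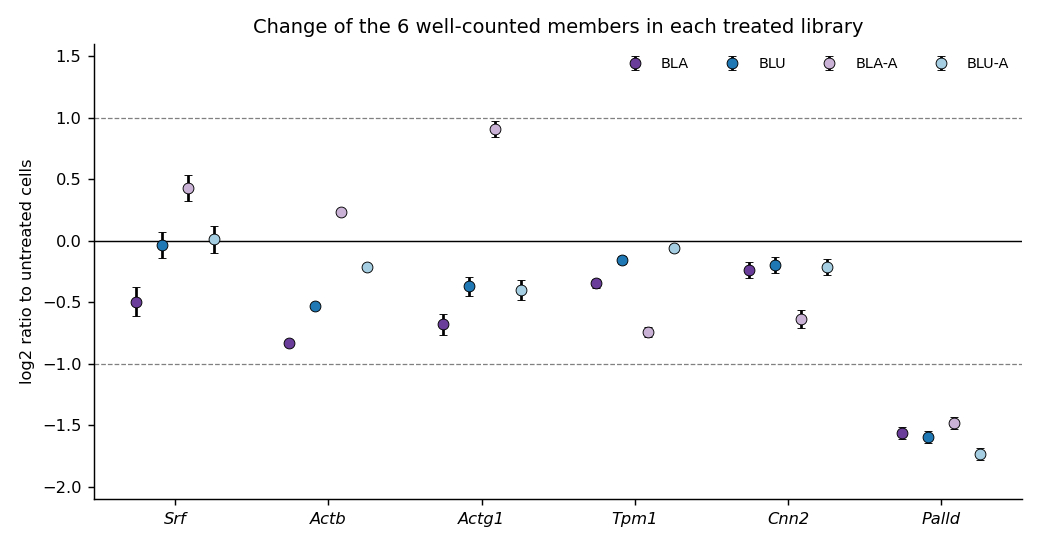
Log2 ratio of CPM to untreated cells (vertical axis, no pseudocount) for the 6 genes with over 1000 counts in every library, one point per treated library. Vertical bars are 95% counting intervals and dashed lines mark a log2 ratio of 1 in size. Palld lies below -1 in all 4 libraries, and Actg1 and Actb are above 0 in BLA-A and below it in the other three.

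Tpm1, a tropomyosin that winds along actin filaments and controls the access of myosin and cofilin, lies on chr9:66929870-66956953. It was at 595 CPM without treatment and at 468, 533, 356 and 572 CPM in the 4 treatments. BLA-A was lowest and BLU-A nearest to untreated cells, at a ratio of 0.962 (0.940 to 0.983). The ratio in BLA-A was 0.598 (0.582 to 0.614), so that Tpm1 and the actins stood on opposite sides of the untreated level in that library.

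Cnn2, a calponin that stabilises actin filaments, lies on chr10:79824410-79831896. It was at 152 CPM without treatment and at 129, 133, 97.7 and 131 CPM in the 4 treatments. Untreated cells were highest, BLA-A was lowest, and the other treatments lay between log2 fold changes of -0.20 and -0.24. The ratio in BLA-A was 0.643 (0.610 to 0.677). Tpm1 and Cnn2 shared the same lowest library.

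The smooth muscle genes of the group were scarcely expressed. Acta2, the smooth muscle actin gene on chr19:34217737-34232990, had 13 counts in untreated cells and 47, 25, 5 and 24 in the 4 treatments. BLA was highest, and its ratio to untreated cells was 3.66 (1.88 to 7.13). On the scale with 0.5 CPM added, its log2 fold change in BLA was 1.20, and with 2 CPM added it was no longer past 1. The levels were 0.23 to 1.74 CPM, and per kb of gene span untreated cells had 0.0312 CPM, far under the 1410 CPM of Actb. The smooth muscle markers Myh11 and Cnn1 were not higher in BLA, at 1.04 and 0.17 CPM against 1.92 and 0.84 CPM in untreated cells. Stambpl1 overlaps Acta2 on the opposite strand.

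Tpm2, the beta-tropomyosin gene on chr4:43514697-43524949, had 34 counts in untreated cells and 59, 70, 13 and 12 in the 4 treatments. The libraries of both extracts were above and those of both nanoparticles below the untreated one. The ratio was 1.71 (1.10 to 2.67) with BLA and 2.00 (1.30 to 3.10) with BLU. It was 0.438 (0.212 to 0.852) with BLA-A and 0.355 (0.167 to 0.702) with BLU-A. No gene overlaps it.

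Tagln, the gene of an actin-binding protein of smooth muscle on chr9:45840909-45847404, had 96 counts in untreated cells and 173, 112, 91 and 179 in the 4 treatments. BLA and BLU-A were above the other three libraries, at ratios of 1.75 (1.37 to 2.29) and 1.87 (1.46 to 2.43). The ratio in BLA-A was 1.08 (0.807 to 1.46) and the log2 fold change of 0.10 turned to -0.07 when total counts were used. Of its 100-base transcript stretches, 33.0% also occur in another gene's transcripts. Myl9, the regulatory light chain of smooth muscle and nonmuscle myosin, on chr2:156617084-156623579, had 0 counts in untreated, BLA and BLU cells, which allows up to 0.113, 0.110 and 0.109 CPM. It had 1 count in BLA-A and 8 in BLU-A and did not pass the filter.

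The question of whether the nanoparticles act on these genes as the plain extracts do was examined over the 4 treated libraries. The stated reason for the choice of Palld did not use this contrast. The genes were, however, chosen with earlier results of these data known. In blackberry, Srf, Actb and Actg1 were higher in BLA-A than in BLA by log2 fold changes of 0.92, 1.07 and 1.58. Acta2, Tpm2, Tagln, Tpm1 and Cnn2 were lower, at -1.62, -1.34, -0.63, -0.39 and -0.40. In blueberry, Actb was at 0.32, Srf at 0.05 and Actg1 at -0.03 between BLU-A and BLU, while the differences of Tpm2, Tagln and Palld were larger in size than in blackberry. Only Tpm2, at -1.68, and Tagln, at 0.67, exceeded 0.5 in size. Past the fold threshold lay 4 of the 9 genes between BLA-A and BLA, against 24.7% of all genes, and 1 between BLU-A and BLU, against 6.52%. Acta2, among the 4, passed the filter through its BLA level alone, so its difference in blackberry carries no weight. Palld differed little in either pair, at 0.08 and -0.14.

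By the edgeR quasi-likelihood test with berry as a covariate and Benjamini-Hochberg adjustment over all 17492 genes, none of the 9 genes was called between nanoparticles and extracts. For Actb, at 5228 CPM with nanoparticles and 3214 CPM with extracts on average, the log2 difference was 0.75 with a standard error of 0.24 (edgeR unadjusted p = 0.0107, adjusted p = 0.774, higher in 2 of 2 pairs). For Tpm2 it was -2.16 with a standard error of 0.96 (edgeR unadjusted p = 0.0467, adjusted p = 0.774, lower in 2 of 2 pairs). Actg1 was at 0.84 with a standard error of 0.40, and Srf at 0.55 with a standard error of 0.34. For Palld the log2 difference was 0.03 with a standard error of 0.27. An unadjusted p under 0.05 was found for 2 of the 9 genes, Actb and Tpm2, against 6.06% of all genes, and DESeq2 called none of the 9. The test called 0.0114% of all genes, and 1 residual degree of freedom bears the spread. The differences turned on single libraries. Without BLU-A and without the covariate, the log2 differences of Srf, Actb and Actg1 were 0.78, 1.02 and 1.53. Without BLA-A that of Actb was 0.48. In such fits a lone library is assumed to vary like the pair on the other side.

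**Figure D4:**
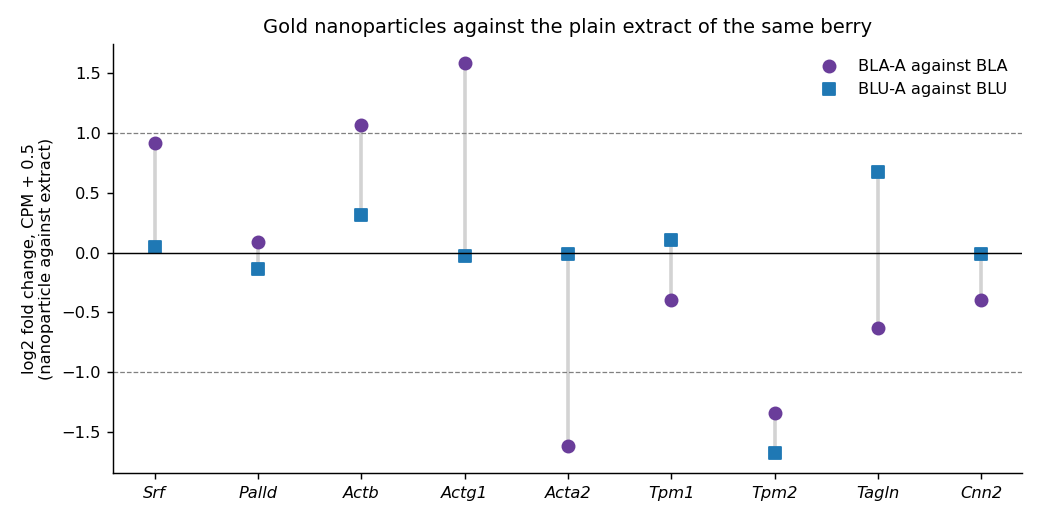
Log2 fold change of CPM plus 0.5 (vertical axis) between the nanoparticle and the plain extract of the same berry for the 9 genes that passed the filter. Circles are blackberry and squares blueberry, 1 library on each side. Tpm2 is below -1 in both berries, and Actg1 and Acta2 are farthest apart between berries, at 1.58 against -0.03 and at -1.62 against -0.01. Acta2 passed the filter through its BLA level alone, so its blackberry value carries no weight.

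The berries were compared in the same fit. None of the 9 genes was called between blackberry and blueberry, the smallest unadjusted p was 0.173 for Tpm1 (log2 difference -0.38, standard error 0.26, edgeR quasi-likelihood test, adjusted p = 0.985), and none had an unadjusted p under 0.05, beside 4.16% of all genes. The test called 0.04% of all genes, and DESeq2 called none of the 9. Between the plain extracts, BLA against BLU, 0 of the 9 genes lay past the fold threshold, against 10.4% of all genes. Between the nanoparticles, BLA-A against BLU-A, 1 did, against 19.3%, and that was Actg1 at 1.30. Without the BLA library, the log2 differences of Srf, Actb, Actg1 and Tpm1 between the berries were 0.55, 0.71, 1.41 and -0.52. That fit compares BLA-A alone with BLU and BLU-A, so these are given as sizes only.

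Genes that work with these were taken from 7 lists, among them Srf cofactors, other targets of MRTF and Srf, targets of TCF and Srf, the palladin family and partners, actin assembly and myosin chains. Of 117 such genes, 107 passed the filter. With the 4 treated libraries against the untreated one, the edgeR quasi-likelihood test called none of the 107. Its spread comes from the 4 treated libraries alone, which are 4 different treatments, and the untreated side is 1 library. Of the 107, 3 had an unadjusted p under 0.05, beside 2.66% of all genes, and DESeq2 called none. The 3 were Mrtfa and the formins Diaph2 and Diaph3, all higher, and the smallest adjusted p of the 107 was 0.999. The test called 0.0229% of all genes. Diaph2, which nucleates straight actin filaments, was at 87.9 CPM without treatment and at 174, 172, 154 and 127 CPM in the 4 treatments. In BLA-A, 12 of the 107 genes were higher and 4 lower past the fold threshold, or 15% beside 20.8% of all genes, of which 8.62% were higher and 12.2% lower. In BLA 5 were lower, beside 8.35% of all genes, and none higher. These were Mypn, Arhgap15, Arpc3, Myl6 and Myh14. In BLU and in BLU-A only Mypn was lower and none higher, or 0.935%, beside 10.1% and 7.72% of all genes in either direction. Mypn was kept through its untreated level alone.

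Of 9 immediate early targets of TCF and Srf, Fos, Junb, Nr4a1 and Egr1 were higher past the fold threshold in BLA-A and none was past it in the other treatments. Over all genes, 8.62% were higher past it in BLA-A. Of genes that span under 10 kb, 16.8% were higher and 7.4% lower past it there. The spans of the 9 targets were not compared. Fos, a subunit of the AP-1 transcription factor, was at 13.2 CPM without treatment and at 23.6, 12.6, 62.4 and 22.0 CPM in the 4 treatments. Junb, another subunit, was at 94.4 CPM and then at 81.5, 81.4, 290 and 97.6 CPM. The transcription factors Egr1 and Nr4a1 were at 211 and 36.7 CPM in untreated and 461 and 104 CPM in BLA-A cells. Fosb was at 49.1 and 91.7 CPM. The median of the list was -0.12, -0.16, 0.90 and 0.05 in the 4 treatments.

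The other targets of MRTF and Srf had no common direction in BLA-A. Of 24 that passed the filter, Tagln2 and Ccn1 were higher and Filip1l and Myh11 lower past the fold threshold there, and none in the other treatments. Over all genes, 8.62% were higher and 12.2% lower past it in BLA-A. Myh11 was at 1.92 CPM in untreated and 0.331 CPM in BLA-A cells. Tagln2, a relative of transgelin made in many cell types, was at 82.0 CPM in untreated and 286 CPM in BLA-A cells. Ccn1, a secreted matrix protein, was at 215 and 477 CPM, and Csrp1 at 52.6 and 103 CPM. Filip1l, an interactor of filamin, was at 1343 CPM without treatment and at 1164, 877, 149 and 1036 CPM in the 4 treatments, which was the largest difference of any listed gene with at least 10 CPM in some library. Ablim1, an actin-binding LIM protein, was at 136 CPM in untreated and 82.2 CPM in BLA-A cells.

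Among 29 genes of actin assembly, Arpc3 was lower in BLA, at 83.6 and 38.4 CPM, and Tmsb10, Fscn1 and Arpc4 were higher in BLA-A past the fold threshold. Over all genes, 8.35% were lower past it in BLA and 8.62% higher in BLA-A. Tmsb10, a thymosin that holds actin monomers, was at 63.2 CPM without treatment and at 38.4, 47.3, 155 and 54.8 CPM in the 4 treatments. Fscn1, which bundles filaments in protrusions, was at 192 CPM and then at 125, 133, 386 and 173 CPM, and Cfl1, cofilin, which severs filaments, at 562 CPM and then at 334, 399, 750 and 508 CPM. These orders matched that of Actb, with BLA lowest and BLA-A highest, but the list did not share it. Capza2, for example, was lowest in BLA-A, with log2 fold changes of -0.363, -0.095, -0.968 and -0.084 in the 4 treatments. Arpc4, a subunit of the Arp2/3 complex, was at 26.4 CPM in untreated and 65.8 CPM in BLA-A cells. The median of the list was -0.37, -0.17, 0.15 and -0.11 in the 4 treatments.

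Of 6 myosin chains, Myl6 and Myh14 were lower past the fold threshold in BLA and none elsewhere, beside 8.35% of all genes lower past it in BLA. Myl6, an essential light chain, was at 45.1 CPM without treatment and at 22.2, 35.9, 35.9 and 40.3 CPM in the 4 treatments. Myl12a and Myl12b, the regulatory light chains that nonmuscle cells use beside Myl9, were at 236 and 168 CPM in untreated cells, so that these cells carried regulatory light chain transcripts although Myl9 was at or near 0. The nonmuscle heavy chains Myh9 and Myh10 were at 842 and 348 CPM in untreated and 1223 and 277 CPM in BLA-A cells.

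**Figure D5:**
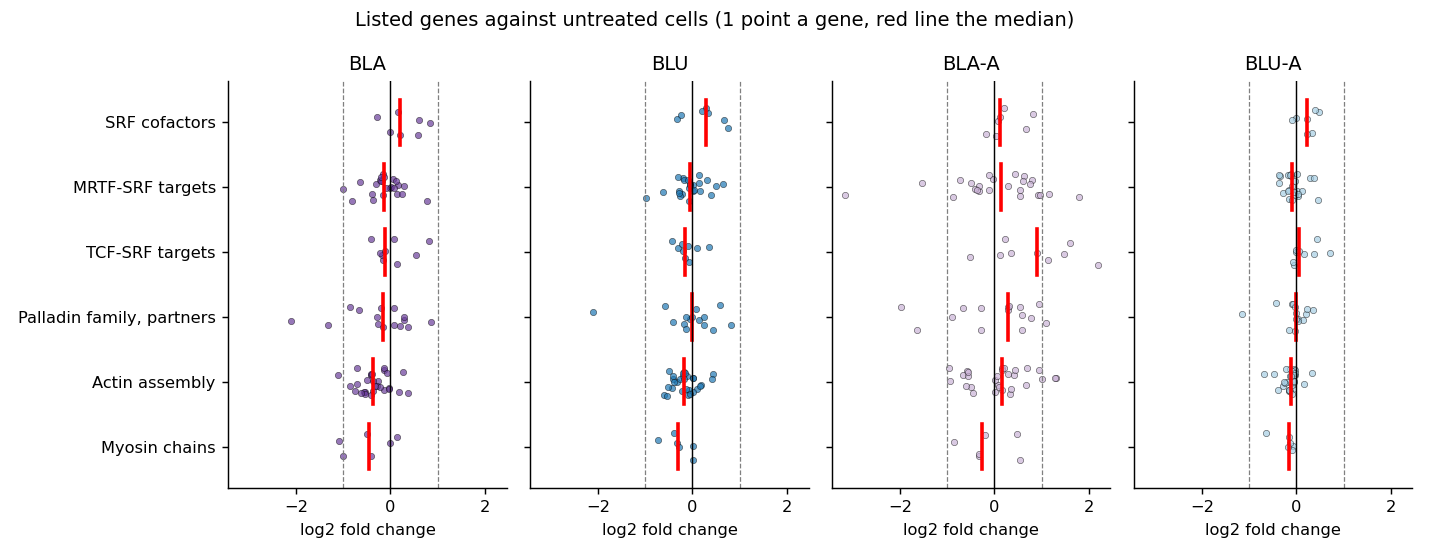
Log2 fold change against untreated cells (horizontal axis) of listed genes that passed the filter, in 6 of the 7 lists (vertical axis) and treatment (panels). Each point is a gene, the red line is the median and dashed lines mark 1 in size. The spread is widest in BLA-A, where the median of the 9 targets of TCF and Srf is 0.90.

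The genes with the most similar pattern were found by Euclidean distance over the 4 log2 fold changes among 7647 genes with a mean of at least 20 CPM. The genes nearest to Palld were Stxbp6, H4c11, Phf5a, H4c12 and Cdc20b, at distances of 0.95 to 1.72. Stxbp6, also called amisyn, a regulator of vesicle fusion, was at 52.4 CPM without treatment and at 17.7, 11.5, 11.1 and 12.4 CPM in the 4 treatments. As Palld was picked for its levels against untreated cells, its distances are a description. Among the nearest to Srf were Gtse1, Otop1, Ncbp1 and Ptdss1, at distances of 0.10 to 0.17. Ncbp1, a subunit of the nuclear cap-binding complex, was at 50.2 CPM without treatment and at 37.4, 49.0, 74.3 and 51.9 CPM in the 4 treatments.

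Genes with a CArG box in the 250 bases before the start were set beside all genes with a promoter entry. Of the genes that passed the filter, 198 of 13206 held a box. Their median log2 fold change was -0.056, -0.096, -0.002 and -0.077 in the 4 treatments, beside -0.016, -0.005, -0.002 and 0.002 for all. Lower past the fold threshold were 10.6%, 8.59%, 16.2% and 5.56% of them in the 4 treatments, beside 7.92%, 4.21%, 11.8% and 4.23% of all. Higher past it were 6.06%, 4.04%, 8.08% and 2.02% of them, beside 7.41%, 5.11%, 8.48% and 2.99% of all. The 3 genes of the group with a box that passed the filter did not share a direction in BLA-A, where Srf and Actg1 were at 0.43 and 0.91 and Cnn2 at -0.64.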

How the data were processed

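Per the labels, RNA of 15 samples of 4T1 cells was sequenced in bulk. The table the authors deposited holds raw read counts for each gene. By their methods, ribosomal RNA was removed and reads were aligned to GRCm39 with STAR and counted by strand over whole genes, uniquely aligned reads only. Their tables of fold changes and p-values and of enrichment scores were not used. The 3 columns of a condition were averaged after the chi-square check and rounded to whole counts for the tests. Genes with at least 1 TMM-normalized CPM in at least 1 library were kept, 0.5 CPM was added before the log2 of each ratio, and a log2 fold change of 1 in size was the threshold. Counting intervals are exact 95% intervals (Clopper-Pearson). Treated libraries were compared by the quasi-likelihood test of edgeR 4.0.16 in R 4.3.3 with adjustment at 0.05, and DESeq2 1.42.0 was an alternative. On simulated data of 17492 genes with a coefficient of variation of 0.4, the test of nanoparticles against extracts recovered 36% of genes changed by 2 and 100% of genes changed by 4 on the log2 scale. The changed genes were drawn above a level that Acta2 and Tpm2 do not reach, and all genes shared the same coefficient. The residual spread behind the real fit was a coefficient of 0.381.

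The genes and lists were chosen with earlier results of these data known. Named besides the 10 genes are up to 5 genes of each list with the largest log2 fold change in any treatment among those with at least 10 CPM in some library, genes of a list past the fold threshold in all 4 treatments, and the 5 genes nearest to Palld and to Srf. Some genes and 1 list are not reported here. Diaph3, Elk4, Cfl1, Vasp, Ablim1, Shc2, Slc9a2, Arhgap15, Arpc3, Myh11, Myh14, Myocd and the marker and neighbouring genes fall outside that rule or were chosen after their values were seen. Positions and shared 100-base stretches came from GENCODE M39, in which 16224 of the 17492 genes were matched by symbol, and promoters from RefSeq on GRCm38.p6. Python 3.11.15, pandas 2.3.3, numpy 2.4.6 and matplotlib 3.10.9 were used. Alternatives covered scaling, filter, pseudocount, reference library, test, covariate, columns as separate samples and single columns or libraries left out.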

Additional observations from a re-analysis of the deposited data

Results flagged for a closer look

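The log2 fold change of the nanoparticle against the plain extract lay on opposite sides of 0 in the berries, each beyond its counting interval, for 3 of the 9 genes. It was 0.08 in blackberry and -0.14 in blueberry for Palld, -0.63 and 0.67 for Tagln, and -0.39 and 0.10 for Tpm1. Actg1, at 1.58 and -0.03, also changed side, but its blueberry interval holds 0. These were marked because the direction differed between berries. With 1 library on each side, the difference between the berries was not tested.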

How the results depend on the processing

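Palld stayed past the fold threshold against untreated cells under every scaling, filter, pseudocount and left-out column tried. With 0.1 CPM added, 2 genes were past it with BLA-A and 2 with BLU-A, the second being Tpm2. With 2 CPM added, or with 10 counts required in every library, 1 was past it in BLA, since Acta2 was lost. Without a filter, 2 were past it in BLA-A, the second being Actg1 at 1.02. Against the mean of the other 4 libraries in place of the untreated one, 0 were past it in BLA, 0 in BLU and 2 in BLA-A. Leaving out 1 library at a time changed which of the 9 genes were called. Such fits leave 1 library on a side, so their calls are not counted. Of 356 other values of single genes, 4 crossed the fold threshold and 5 changed sign, those of Tagln with BLA-A and Srf with BLU-A.

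The same-numbered columns of different conditions did not deviate together (mean correlation -0.00162 over 30 pairs), so the numbers do not pair the samples. Taking the columns as 12 separate samples called 6 genes between nanoparticles and extracts and 3 between berries, and with a replicate block 4 and 3. Of the 107 listed genes, 91 were called with 15 columns as separate samples and 91 with a replicate block. No count over all genes stands beside these 91, so they carry no weight as a result. In these fits the spread is that between columns of 1 library, so the calls compare libraries and not conditions. Depth limits Acta2, Tpm2, Tagln and Myl9, which had under 200 counts in every library, and 1 library per condition limits every comparison with untreated cells.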
